A study of Homo sapiens with 6 samples.

Results

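The 10 genes described here are a core of the bone morphogenetic protein (BMP) pathway and its best known targets: the ligand BMP4, the receptors BMPR1A and BMPR2, the signal carriers SMAD1 and SMAD5, the inhibitor SMAD6, and the target genes ID1, ID2, ID3 and ID4. They were taken by symbol from the 42656 gene rows of the deposited read count table, and all 10 passed the filter on low counts and were among the 15679 genes tested. RNA was sequenced from TOV21G, an established human ovarian clear cell carcinoma line, 3 days after lentiviral transduction at a multiplicity of infection of 50. The shMEX3A arm (genotype label MEX3A knockdown, 3 libraries) carried 1 hairpin against MEX3A, which encodes an RNA-binding protein. The shCtrl arm (genotype label WT, 3 libraries) carried 1 scrambled hairpin. All cells grew in medium with 15% serum and were used within 25 passages. With 1 hairpin in each arm, effects of MEX3A loss and of that hairpin sequence cannot be told apart.

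BMP ligands bind a complex of type I receptors such as BMPR1A and type II receptors such as BMPR2, in which the type II receptor activates the type I kinase. The type I receptor phosphorylates SMAD1, SMAD5 and SMAD9, which join SMAD4 and enter the nucleus. There they switch on the ID genes and also the inhibitory SMADs, which feed back on the receptors. ID proteins are helix-loop-helix proteins without a DNA-binding region. They pair with E proteins and other basic helix-loop-helix factors and keep them off DNA, and they are known for holding cells in an undifferentiated, proliferating state. BMP signalling is active in ovarian surface epithelium and in many ovarian carcinomas.

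Library totals ran from 34662635 to 48228216 counts. Levels are given as normalised read counts (CPM after TMM scaling), which set each library against the bulk of its genes. A change in total mRNA per cell would therefore not be seen, and in bulk RNA fewer expressing cells and less RNA per cell cannot be told apart. MEX3A measured 19.6, 21.0 and 22.2 CPM in shMEX3A and 68.8, 70.7 and 67.6 CPM in shCtrl, so the targeted mRNA was 3.31-fold lower. Its log2 fold change was -1.72 (SE 0.046), and its adjusted p by the quasi-likelihood test of edgeR, used for all adjusted p-values here, was 1.52e-28. The first principal component (77.4% of variance) separated the arms, and shCtrl replicate 1 lay farthest out on the second (8.66%). The Müllerian marker PAX8 (294 ± 5.20 CPM in shMEX3A and 192 ± 4.11 CPM in shCtrl) was well expressed, ESR1 and PGR had 0 counts, and NAPSA, a clear cell marker, stayed under 1 CPM. Of 6 leukocyte markers CD68 alone passed the filter, and it was called higher (log2 fold change 0.27). Exons of AC016876.1 and AC016876.2 cover 85.8% of CD68 exon bases, so its reads may not all be its own. Of 8 fibroblast markers COL1A1, COL1A2 and DCN rose and THY1 was not called (0.20). COL3A1, LUM, PDGFRA and PDGFRB were too low to test. The summed level of the fibroblast list was 1249 to 1284 CPM in shMEX3A and 584 to 597 CPM in shCtrl, nearly all from the 2 collagen I genes. The endothelial list, with 2 of 6 genes higher, summed to 9.96 to 11.0 CPM in shMEX3A and 4.99 to 5.16 CPM in shCtrl, with KDR and CLDN5 at 0. The part of these markers in the results below was not tested.

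Of the 10 genes, 6 fell in shMEX3A, 3 rose and 1, SMAD6, was not called at an adjusted p of 0.05. Over all tested genes 69.7% were called, 34.0% higher and 35.6% lower, so a call by itself is common in this comparison. The libraries of the arms did not overlap for any of the 10 genes, where 72.3% of tested genes showed the same. The median log2 fold change was -0.39 over the 10 genes and -0.01 over all tested genes. Their median size, regardless of sign, was 0.43 against 0.35 for all tested genes. As the 10 genes were chosen with earlier results of these data known, these medians are descriptive only. The falls were in ID1, SMAD5, ID2, ID4, BMPR1A and SMAD1, from the largest to the smallest. Falls as large as that of ID1 were found in 3.85% of tested genes, and as large as that of SMAD5 in 4.53%.

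**Figure D1:**
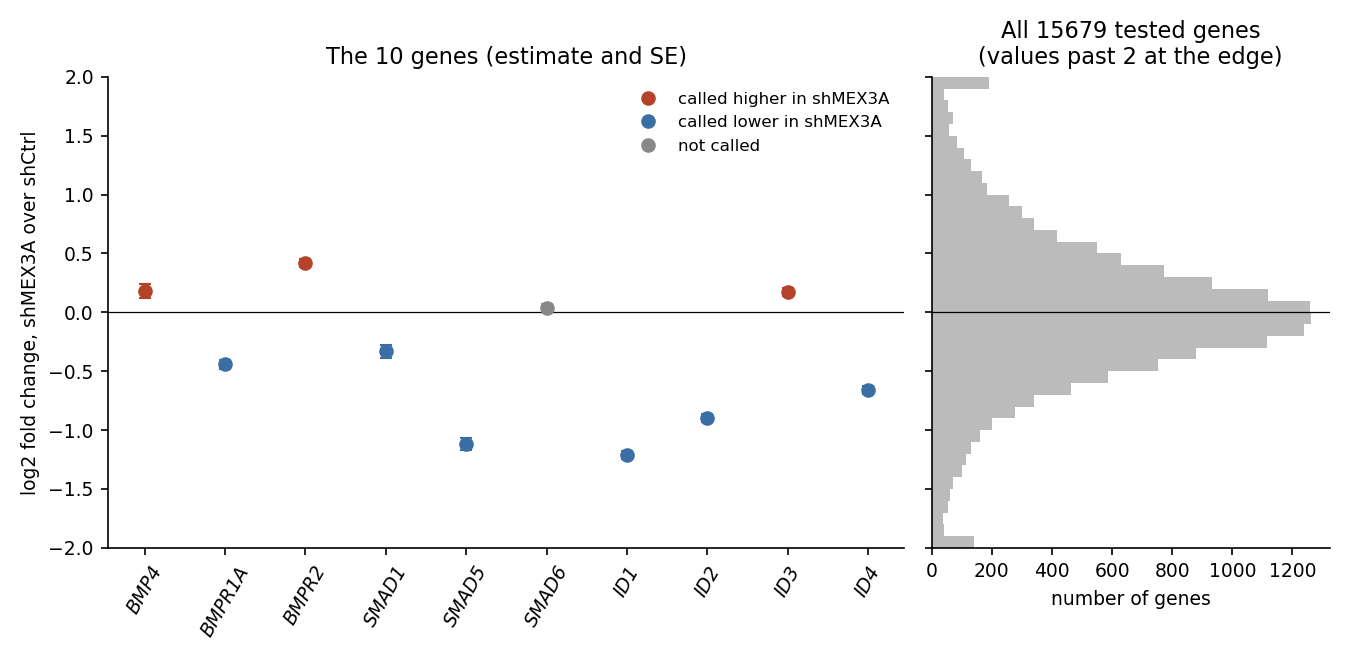
Left, log2 fold change of each of the 10 genes, shMEX3A over shCtrl, with its standard error and coloured by call. Right, the number of all 15679 tested genes at each log2 fold change. ID1 (-1.21) and SMAD5 (-1.12) lie in the lower tail of all genes, while BMP4, SMAD6 and ID3 lie close to 0.

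BMP4, the ligand of the set, lies on chromosome 14 (53949736 to 53958761, minus strand, GRCh38, GENCODE 29). It was expressed at a modest level of 18.2, 18.9 and 20.5 CPM in shMEX3A and 17.2, 16.4 and 17.2 CPM in shCtrl. Every shMEX3A library was above every shCtrl library, by a small margin. The log2 fold change was 0.18 (SE 0.062, adjusted p = 0.0110). This rise lost its call when shMEX3A replicate 3, the highest library, was left out (log2 fold change 0.13, adjusted p = 0.0850).

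Of 13 other BMP family ligands listed, 5 passed the filter, 2 rose, 2 fell and 1 was not called. Over all tested genes 34.0% were called higher and 35.6% lower. BMP8A and BMP8B are neighbouring, closely similar genes on chromosome 1. BMP8A measured 7.57 ± 0.362 CPM in shMEX3A and 2.99 ± 0.214 CPM in shCtrl (log2 fold change 1.34, SE 0.105), and BMP8B measured 5.21 ± 0.406 CPM in shMEX3A and 8.79 ± 0.288 CPM in shCtrl (-0.75, SE 0.091). Reads from copies this alike can be split or dropped in counting, so the opposite directions of the pair are uncertain, and 15.8% of BMP8A exon bases also lie under exons of PPIEL on the other strand. BMP6 had 14, 4 and 4 counts in shMEX3A and 47, 45 and 42 counts in shCtrl (-2.62, SE 0.365, adjusted p = 6.04e-08), and without shMEX3A replicate 1 its log2 fold change was -3.47. BMP2 stood at 1.19 ± 0.0359 CPM in shMEX3A and 0.826 ± 0.104 CPM in shCtrl (0.53, SE 0.236, adjusted p = 0.0434). The call of BMP2 was lost under 8 of 16 alternatives, with adjusted p from 0.0550 to 0.147, among them the fit with the replicate number as a block (0.0550) and, of the fits that leave out 1 library, all but that without shCtrl replicate 2. Per kb of exon, BMP4 was the most abundant ligand mRNA of those tested, at 6.23 ± 0.394 CPM per kb in shMEX3A and 5.49 ± 0.160 CPM per kb in shCtrl.

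The receptors moved in opposite directions. BMPR2, the type II receptor (chromosome 2, 202376936 to 202567751, plus strand), measured 153, 149 and 153 CPM in shMEX3A and 111, 112 and 117 CPM in shCtrl. All shMEX3A libraries were higher, and the log2 fold change was 0.42 (SE 0.033, adjusted p = 2.66e-14). BMPR1A, the type I receptor also called ALK3 (chromosome 10, 86756601 to 86932838, plus strand), measured 69.8, 68.7 and 68.2 CPM in shMEX3A and 88.8, 96.7 and 94.9 CPM in shCtrl. Here all shMEX3A libraries were lower, with a log2 fold change of -0.44 (SE 0.037, adjusted p = 3.79e-13). Set against each other within a library and per kb of exon, BMPR2 stood at 2.11, 2.08 and 2.15 times the level of BMPR1A in shMEX3A and at 1.20, 1.11 and 1.18 times in shCtrl. That ratio, like each of the 9 within-library ratios computed for the 10 genes, had a two-sided exact permutation p of 0.10, which is the smallest that 3 against 3 libraries allow (0.10 after adjustment over the 9). GENCODE 29 lists processed pseudogene copies of BMPR1A, and reads shared with them were not analysed here.

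The other receptors and co-receptors of the pathway rose or were not called. Of 9 listed, 7 were tested and 5 of these rose and none fell, where 34.0% of all tested genes rose and 35.6% fell. The median over the 7 was 0.34 on the log2 scale. ACVR2B, a type II receptor shared with activins, had the largest rise, at 87.5 ± 1.87 CPM in shMEX3A and 35.8 ± 0.989 CPM in shCtrl (1.29, SE 0.039, adjusted p = 6.92e-27). ENG, the co-receptor endoglin, measured 58.3 ± 1.50 CPM in shMEX3A and 42.1 ± 0.772 CPM in shCtrl (0.47, SE 0.040). The type I receptors ACVR1 (0.34), ACVRL1 (0.53) and the co-receptor RGMB (0.31) also rose. BMPR1B, the closest relative of BMPR1A, was low at 3.84 ± 0.192 CPM in shMEX3A and 3.36 ± 0.390 CPM in shCtrl, and was not called (0.19, SE 0.125, adjusted p = 0.173), except with GC and length offsets (adjusted p = 0.0144). Among the tested receptors of the pathway, BMPR1A was thus the one that fell.

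**Figure D2:**
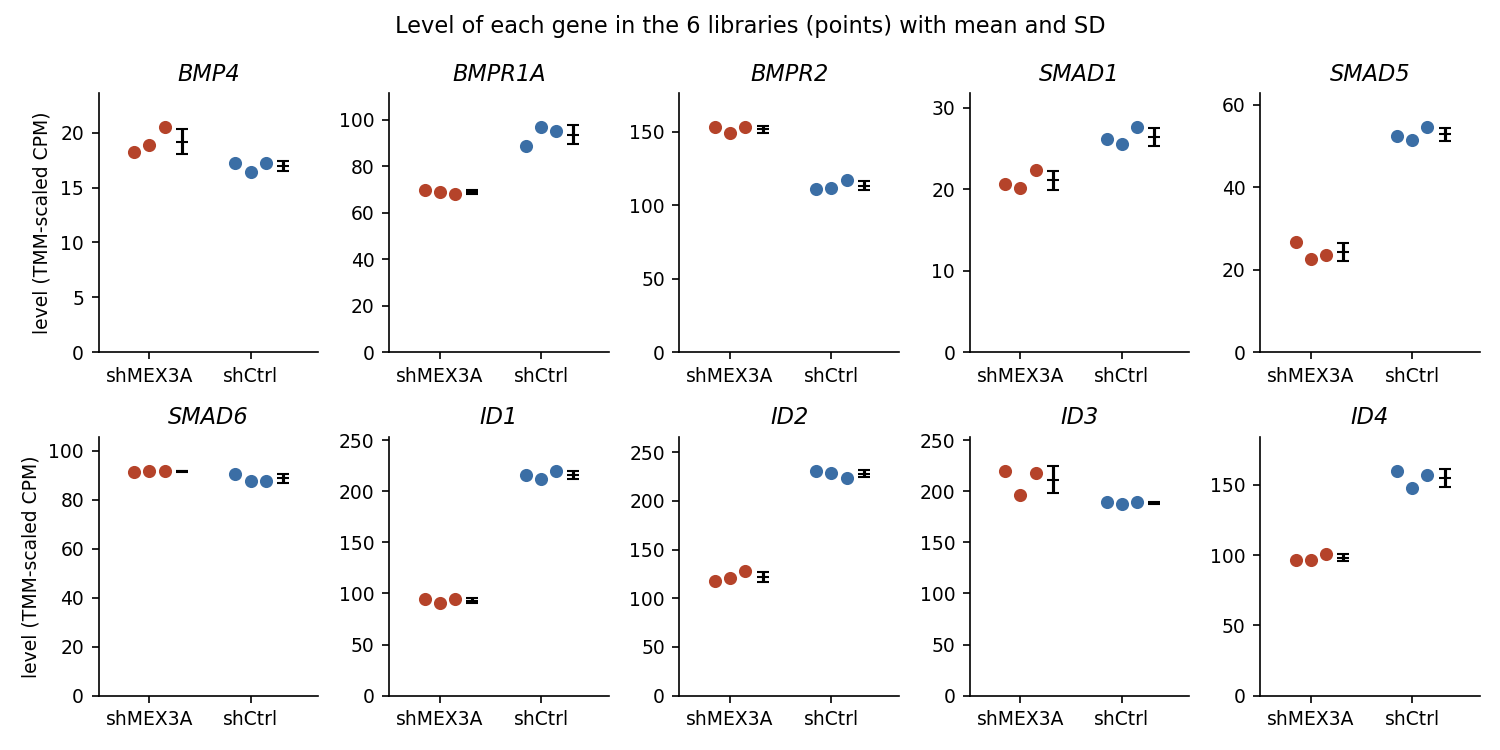
Level of each of the 10 genes in CPM (vertical axes start at 0, scaled separately for each gene) in the 3 shMEX3A libraries on the left of each panel and the 3 shCtrl libraries on the right, with the mean and SD beside the points. The arms do not overlap for any gene, but the gap is narrow for BMP4, ID3 and SMAD6 and wide for ID1, ID2 and SMAD5.

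SMAD5 and SMAD1, the receptor-activated SMADs of the set, both fell, SMAD5 by far more. SMAD5 (chromosome 5, 136132845 to 136188747, plus strand) measured 26.7, 22.6 and 23.7 CPM in shMEX3A and 52.5, 51.6 and 54.6 CPM in shCtrl. Its level was 2.18-fold lower, with all shMEX3A libraries far under the lowest shCtrl library (log2 fold change -1.12, SE 0.051, adjusted p = 3.16e-20). SMAD1 (chromosome 4, 145481194 to 145558079, plus strand) measured 20.6, 20.2 and 22.4 CPM in shMEX3A and 26.1, 25.5 and 27.6 CPM in shCtrl. The arms did not overlap, and the log2 fold change was -0.33 (SE 0.056, adjusted p = 2.27e-06). With offsets for GC content and exon length, an alternative added once the data had been seen, the fall of SMAD1 was smaller (-0.18, adjusted p = 0.00290) and that of SMAD5 was -1.01.

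Per kb of exon, SMAD5 was below SMAD1 in shMEX3A (2.69 ± 0.232 and 3.47 ± 0.199 CPM per kb) and above it in shCtrl (5.85 ± 0.175 and 4.36 ± 0.176 CPM per kb). Within a library the SMAD5 to SMAD1 ratio was 0.869, 0.751 and 0.709 in shMEX3A and 1.35, 1.35 and 1.33 in shCtrl. The antisense transcript SMAD1-AS1 overlaps 6.21% of SMAD1 exon bases. For SMAD5, 6.75% lie under SMAD5-AS1 or under RF02174 and RF02175, which are on its own strand. Reads of RF02174 and RF02175 were not examined. The strand setting of the counting was not stated, but the antisense rows held few reads, at most 13 for SMAD1-AS1 and 3 for SMAD5-AS1 in any library.

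The remaining members of the SMAD branch differed among themselves. SMAD9, the third receptor-activated SMAD of the BMP branch, was weakly expressed and fell to 1.07, 1.08 and 1.06 CPM in shMEX3A, against 4.03, 5.08 and 4.24 CPM in shCtrl (-2.05, SE 0.155, adjusted p = 1.47e-14). All 3 receptor-activated SMADs of the BMP branch were therefore lower in shMEX3A, where 35.6% of all tested genes were called lower and 34.0% higher. SMAD4, the shared partner, was not called, at 61.0 ± 1.84 CPM in shMEX3A and 57.8 ± 0.945 CPM in shCtrl (0.08, SE 0.038, adjusted p = 0.0795). It was called higher under 5 of 16 alternatives, with log2 fold changes up to 0.14, among them the fit without shMEX3A replicate 2 (adjusted p = 0.0346).

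The inhibitory SMADs did not change alike. SMAD6 (chromosome 15, 66702228 to 66782848, plus strand), which blocks BMP receptors and is itself a BMP target, measured 91.1, 91.8 and 91.6 CPM in shMEX3A and 90.6, 87.6 and 87.8 CPM in shCtrl. The values differed by a few CPM at most, and the gene was not called (log2 fold change 0.04, SE 0.035, adjusted p = 0.255). With the same GC and length offsets it was called lower (-0.18, SE 0.033, adjusted p = 1.26e-05), so its direction depends on that correction. SMAD7, which inhibits both BMP and TGF-beta receptors, rose to 34.5, 39.7 and 36.8 CPM in shMEX3A, against 24.4, 23.8 and 24.0 CPM in shCtrl (0.62, SE 0.053, adjusted p = 2.82e-13). As SMAD5 fell, the ratio of SMAD6 to SMAD5 per kb was 3.99 ± 0.349 in shMEX3A and 1.77 ± 0.0657 in shCtrl (SD, n = 3 each).

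ID1, ID2 and ID4 fell in shMEX3A, while ID3 rose slightly. ID1 (chromosome 20, 31605283 to 31606515, plus strand) measured 94.1, 90.3 and 94.7 CPM in shMEX3A and 216, 212 and 220 CPM in shCtrl. This 2.32-fold lower level was the largest change of the 10 genes (log2 fold change -1.21, SE 0.033, adjusted p = 1.84e-28). ID2 (chromosome 2, 8678845 to 8684453, plus strand) measured 118, 121 and 128 CPM in shMEX3A and 231, 229 and 224 CPM in shCtrl. It was 1.86-fold lower (-0.90, SE 0.033, adjusted p = 3.20e-24), and 1.72% of its exon bases lie under ID2-AS1, which had at most 30 counts in a library.

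ID4 (chromosome 6, 19837386 to 19840684, plus strand) measured 96.5, 96.8 and 101 CPM in shMEX3A and 160, 148 and 157 CPM in shCtrl. It was 1.58-fold lower (-0.66, SE 0.035, adjusted p = 2.52e-19), again with no overlap between the arms. ID3 (chromosome 1, 23557918 to 23559794, minus strand) measured 220, 196 and 218 CPM in shMEX3A and 189, 187 and 189 CPM in shCtrl. It was slightly higher in every shMEX3A library (0.17, SE 0.035, adjusted p = 1.16e-04), with shMEX3A replicate 2 nearest to the shCtrl libraries. Over the 16 alternatives the log2 fold change of ID3 ran from 0.13 to 0.22 and stayed called.

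The make-up of the ID pool therefore differed between the arms. Summed per kb of exon, the 4 ID genes reached 293, 279 and 299 CPM per kb in shMEX3A and 453, 443 and 452 in shCtrl. ID3 made up 41.7%, 39.2% and 40.5% of that sum in shMEX3A and 23.2%, 23.5% and 23.3% in shCtrl. ID1 made up 26.0%, 26.3% and 25.7% in shMEX3A and 38.6%, 38.8% and 39.5% in shCtrl. ID3 was thus the most abundant ID mRNA in all shMEX3A libraries and ID1 the most abundant in all shCtrl libraries. In shCtrl, ID2 (103 ± 1.66 CPM per kb) and ID3 (105 ± 0.631) did not differ by more than their spread, and ID4 was lowest in both arms (41.9 ± 1.11 in shMEX3A and 66.1 ± 2.62 in shCtrl). Within a library the ratio of ID3 to ID1 was 1.60, 1.49 and 1.58 in shMEX3A and 0.601, 0.605 and 0.589 in shCtrl, with the exact permutation p of 0.10 given above. The levels per kb, their sum, the shares and the order of the genes rest on exon lengths from GENCODE 29, which may not match the transcripts used in these cells. In CPM, without lengths, ID2 was above ID1 in every shCtrl library, and ID1, not ID4, was lowest in every shMEX3A library.

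**Figure D3:**
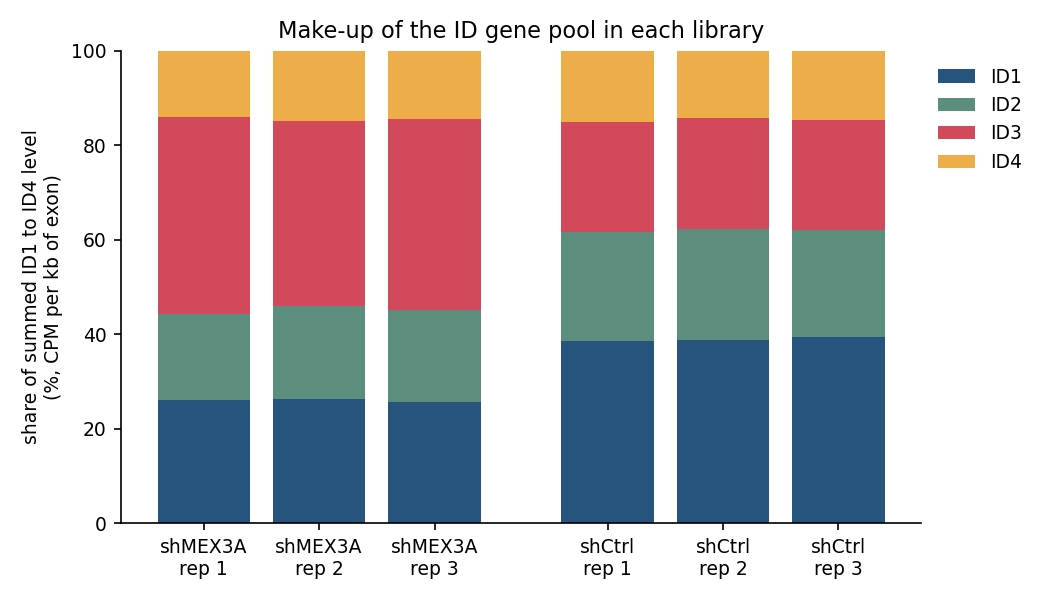
Share of ID1, ID2, ID3 and ID4 in their summed level (percent, CPM per kb of exon) in each shMEX3A library on the left and each shCtrl library on the right. ID3 takes about 40.5% in shMEX3A and 23.3% in shCtrl, ID1 takes 26.0% and 39.0%, and the share of ID4 stays near 14.4% and 14.7%.

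The promoters of the 4 ID genes are shown because 3 of these related genes fell together and 1 did not. Each line gives the sequence from 250 bases before to 50 bases after the annotated start (RefSeq, GRCh38.p14, 5′ to 3′ on the strand of the gene). The windows are chr20:31605039-31605338 on the plus strand for ID1, chr2:8681806-8682105 on the plus strand for ID2, chr1:23559452-23559751 on the minus strand for ID3, and chr6:19837120-19837419 on the plus strand for ID4. Capitals mark GTCT or its reverse complement AGAC (the core box bound by SMADs), CCAAT or ATTGG (the CCAAT box), and TATAAA or TTTATA (the TATA box).
ID1: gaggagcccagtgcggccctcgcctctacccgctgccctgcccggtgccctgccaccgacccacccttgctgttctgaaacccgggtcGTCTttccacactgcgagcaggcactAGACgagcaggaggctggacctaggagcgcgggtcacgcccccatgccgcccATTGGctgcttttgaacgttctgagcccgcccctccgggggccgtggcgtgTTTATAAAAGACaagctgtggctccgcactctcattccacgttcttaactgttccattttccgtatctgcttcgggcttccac
ID2: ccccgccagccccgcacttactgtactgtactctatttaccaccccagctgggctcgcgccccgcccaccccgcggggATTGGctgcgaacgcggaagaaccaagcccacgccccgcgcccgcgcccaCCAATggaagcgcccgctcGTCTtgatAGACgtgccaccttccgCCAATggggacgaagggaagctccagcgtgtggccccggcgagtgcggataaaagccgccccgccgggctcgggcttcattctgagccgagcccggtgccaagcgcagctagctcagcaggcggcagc
ID3: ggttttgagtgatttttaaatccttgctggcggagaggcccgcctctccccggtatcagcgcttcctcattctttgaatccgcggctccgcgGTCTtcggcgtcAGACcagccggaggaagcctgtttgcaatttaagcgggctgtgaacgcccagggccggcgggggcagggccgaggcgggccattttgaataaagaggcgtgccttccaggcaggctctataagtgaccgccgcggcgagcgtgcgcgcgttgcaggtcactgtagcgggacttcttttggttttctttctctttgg
ID4: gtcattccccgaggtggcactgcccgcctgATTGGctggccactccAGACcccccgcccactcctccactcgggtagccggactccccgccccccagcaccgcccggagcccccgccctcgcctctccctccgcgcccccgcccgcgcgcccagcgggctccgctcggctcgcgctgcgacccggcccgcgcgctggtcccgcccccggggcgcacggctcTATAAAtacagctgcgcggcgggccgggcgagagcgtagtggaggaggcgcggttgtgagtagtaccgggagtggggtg

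A search on both strands for these motifs and for the GC-rich SMAD1 and SMAD5 element GGCGCC gave the following. GGCGCC was found in none of the 4 windows and in 19.2% of all 35116 RefSeq promoter windows of this length. Sequence outside these windows was not searched, so SMAD elements farther from the start would have been missed. The short GTCT box was found in all 4, as in 84% of all windows. The CCAAT box was found in ID1 (at 84 bases before the start), in ID2 (at 172, 122 and 78 bases before it) and in ID4 (at 220 bases before it), and not in ID3, against 34.6% of all windows. TATAAA lay 31 bases before the start in ID1 and 29 bases before it in ID4, and was found on either strand in 11.5% of all windows. No exact match was found in the ID2 and ID3 windows, which hold the close variants gataaa (ID2) and tataag (ID3). For every motif only exact matches were counted. In ID1 the TATAAA and TTTATA matches overlap at 1 site, which runs directly into an AGAC. Thus the 3 promoters with a CCAAT box belong to the genes that fell, which describes 4 windows and was not tested.

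By distance between log2 CPM profiles over the 6 libraries, each centred on its own mean, the genes nearest to ID1 were CLDND1 (distance 0.0434), SSR3 (0.0697) and TMEM64 (0.0744), with log2 fold changes of -1.20, -1.17 and -1.21. With 2 arms of 3 libraries such likeness reflects little more than an equal fold change.

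Known BMP targets other than the ID genes moved in both directions. Of 14 listed, 13 were tested, 5 rose, 6 fell and 2 were not called, beside 34.0% higher and 35.6% lower over all tested genes. MSX2, a homeobox gene widely used as a BMP readout, measured 46.3 ± 2.49 CPM in shMEX3A and 71.5 ± 0.831 CPM in shCtrl (log2 fold change -0.63, SE 0.040, adjusted p = 1.11e-16). DLX5, another homeobox gene, measured 114 ± 4.0 CPM in shMEX3A and 168 ± 10.9 CPM in shCtrl (-0.56, SE 0.040). ATOH8 (-1.28), GATA2 (-0.57), GATA3 (-0.47) and HEY1 (-0.32) were also called lower, but these calls of ATOH8, GATA3 and HEY1 are fragile. HEY1 lost its call under 11 of 16 alternatives (adjusted p 0.0518 to 0.223), the replicate block among them, GATA3 under 6 (0.0562 to 0.261) and ATOH8 under 3 (0.0572 to 0.0997). The count of targets that fell was therefore 3 in place of 6 without shMEX3A replicate 2, without shCtrl replicate 2, and with DESeq2, while 5 rose in each of these fits. The libraries of the arms overlapped for GATA3 and HEY1, and ATOH8 was under 1 CPM. On the other side, SOX9, a chondrogenic factor, measured 129 ± 1.26 CPM in shMEX3A and 85.7 ± 4.13 CPM in shCtrl (0.60, SE 0.036), and the osteogenic factor RUNX2 measured 5.00 ± 0.393 CPM in shMEX3A and 1.68 ± 0.110 CPM in shCtrl (1.58, SE 0.135). MSX1 (1.50), KLF2 (0.81) and JUNB (0.59) also rose. Most of these genes answer to other pathways as well.

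Among 12 intracellular and membrane inhibitors of the pathway, all tested, 6 rose, 3 fell and 3 were not called. The shares over all tested genes were 34.0% higher and 35.6% lower. SKI, a co-repressor of SMAD complexes, measured 225, 224 and 229 CPM in shMEX3A and 118, 115 and 118 CPM in shCtrl (0.95, SE 0.031, adjusted p = 9.37e-26). The ubiquitin ligases SMURF1 (0.58, SE 0.035) and SMURF2 (0.62, SE 0.040), which target receptor-activated SMADs and receptors, rose together. BAMBI, a decoy receptor without a kinase domain that is induced by BMP and TGF-beta, went the other way with 17.1, 17.5 and 18.4 CPM in shMEX3A and 56.6, 53.9 and 55.1 CPM in shCtrl (-1.65, SE 0.048, adjusted p = 2.51e-27). STUB1, a ubiquitin ligase, fell by 0.22 on the log2 scale, and 42.4% of its exon bases lie under JMJD8 on the other strand.

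Among secreted antagonists and modulators, 8 of 19 were tested, 4 rose and 3 fell, beside 34.0% and 35.6% of all tested genes. NOG, the antagonist noggin, had 7, 2 and 2 counts in shMEX3A and 24, 16 and 20 counts in shCtrl (-2.44, SE 0.480, adjusted p = 2.66e-05), and without shMEX3A replicate 1 its log2 fold change was -3.26. FSTL1, a follistatin-like glycoprotein, measured 139 ± 1.79 CPM in shMEX3A and 231 ± 9.87 CPM in shCtrl (-0.72, SE 0.033). The tolloid proteases TLL2 (0.55, SE 0.054) and BMP1 (0.22, SE 0.043), whose family cleaves the antagonist chordin, rose, but with GC and length offsets BMP1 stood at -0.01 (adjusted p = 0.817). GREM1, CHRD and FST, other secreted inhibitors, were too low to test.

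The partners of ID proteins included 6 tested genes of 12, of which 1 rose and 3 fell. BHLHE40 was called higher as well under 6 of 16 alternatives. TCF3, the E protein E2A that ID proteins bind, measured 193, 192 and 195 CPM in shMEX3A and 133, 133 and 129 CPM in shCtrl (0.55, SE 0.031, adjusted p = 2.05e-18), and 0.35 with GC and length offsets. TCF12, the E protein HEB, measured 58.8 ± 2.05 CPM in shMEX3A and 69.6 ± 0.613 CPM in shCtrl (-0.24, SE 0.038), and -0.15 with those offsets. TAL1, a tissue-specific helix-loop-helix factor, fell to 4.39 ± 0.333 CPM in shMEX3A, against 8.92 ± 0.736 CPM in shCtrl (-1.01, SE 0.096), while TCF4 and MYOD1 were too low to test. Over the 7 pathway lists, 54 of 82 genes were tested, 24 rose and 18 fell, beside the 34.0% and 35.6% of all tested genes.

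**Figure D4:**
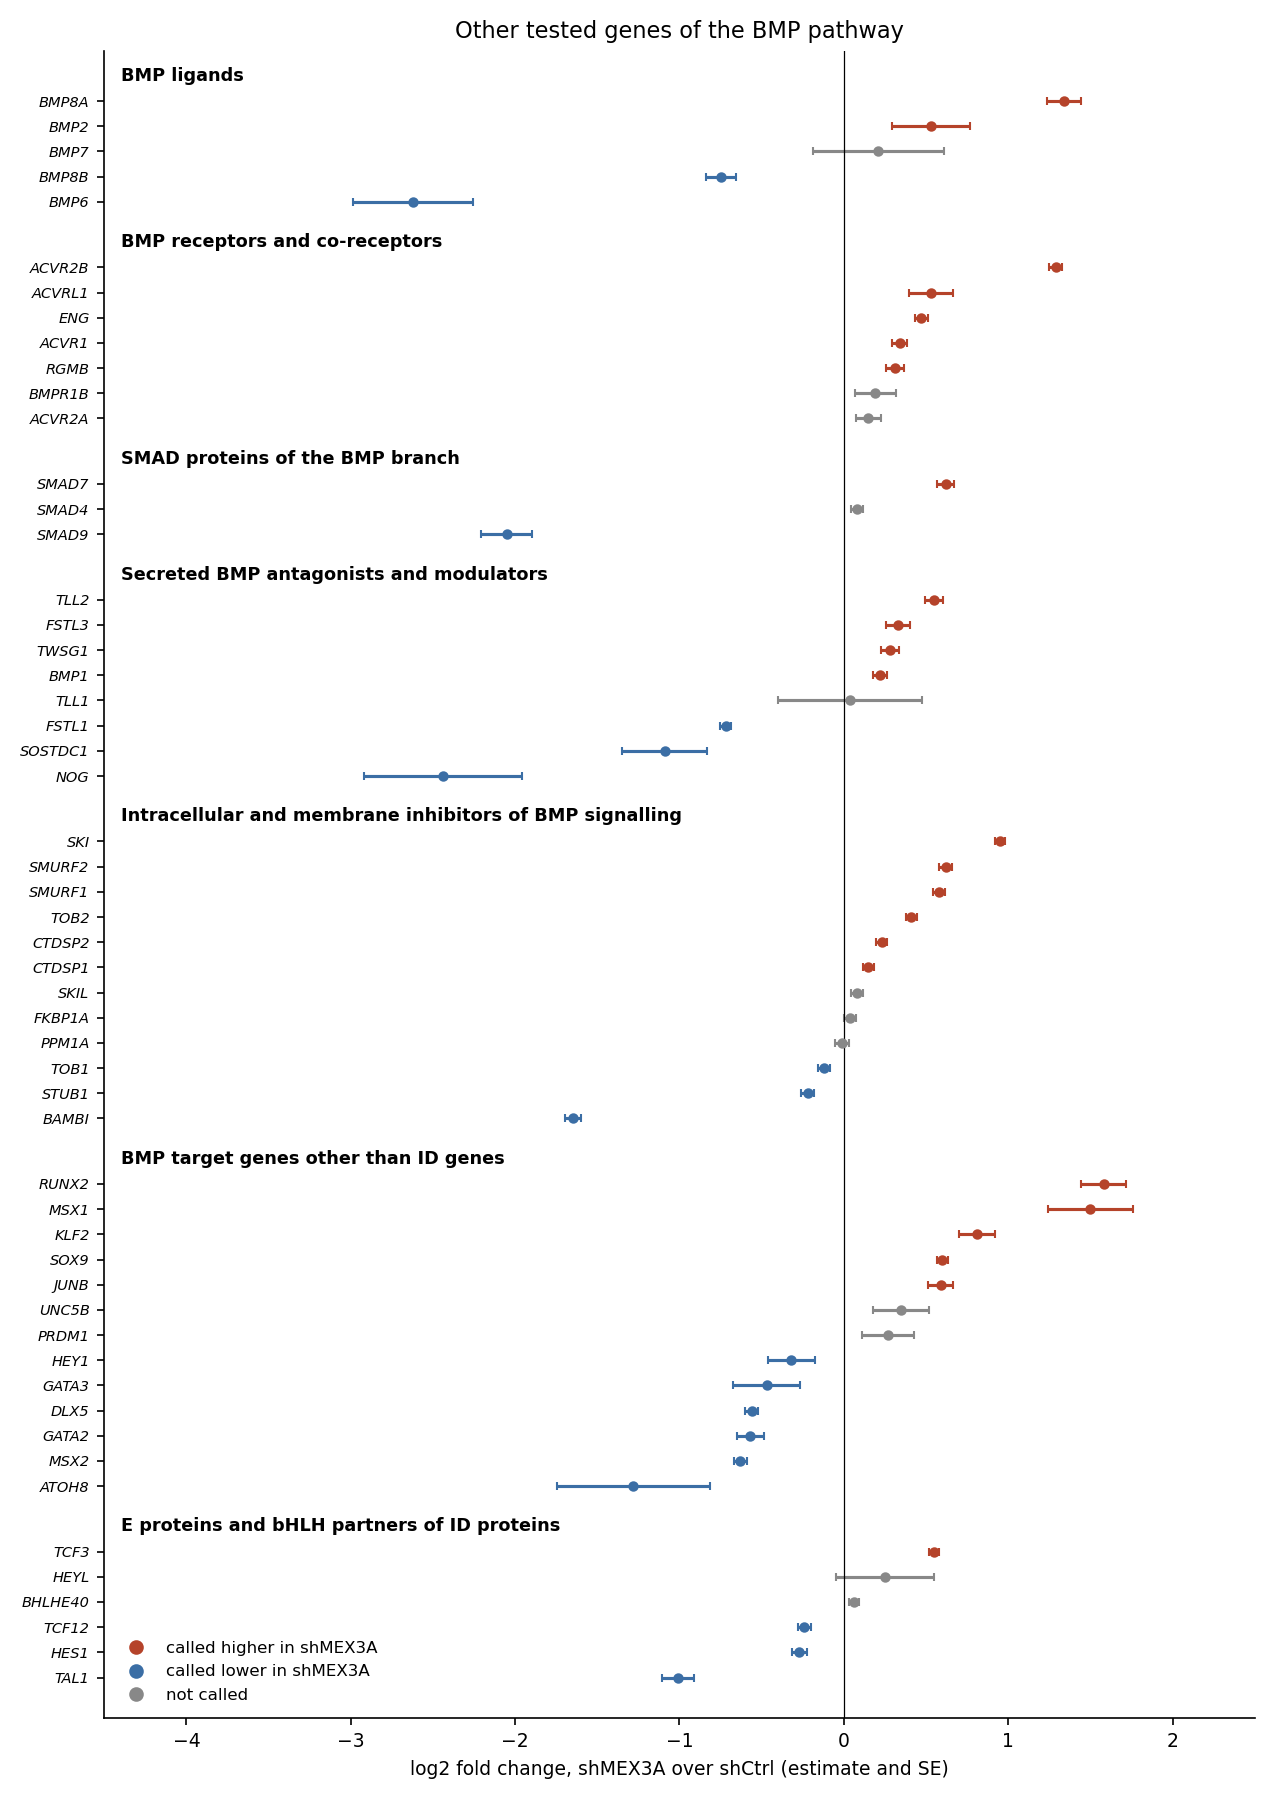
Log2 fold change (shMEX3A over shCtrl) with its standard error for the 54 tested genes of the 7 pathway lists, coloured by call. The receptors lie to the right of 0, the BMP targets spread to both sides from -1.28 (ATOH8) to 1.58 (RUNX2), and SMAD9, BMP6 and NOG have the largest falls.

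Among the 10 genes, the 3 largest falls, those of ID1, SMAD5 and ID2, moved little with the processing. Leaving out shCtrl replicate 1, the library farthest from the others of its arm, gave -1.22 for ID1, -0.89 for ID2, -0.64 for ID4 and -1.13 for SMAD5. Without the offsets, the alternatives for ID1 ran from -1.23 to -1.19 and those for SMAD5 from -1.19 to -1.07. With GC and length offsets ID1 stood at -1.28, ID2 at -0.85 and SMAD5 at -1.01. The same offsets moved ID4 from -0.66 to -0.50, BMPR1A from -0.44 to -0.35 and BMPR2 from 0.42 to 0.52.

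**Figure D5:**
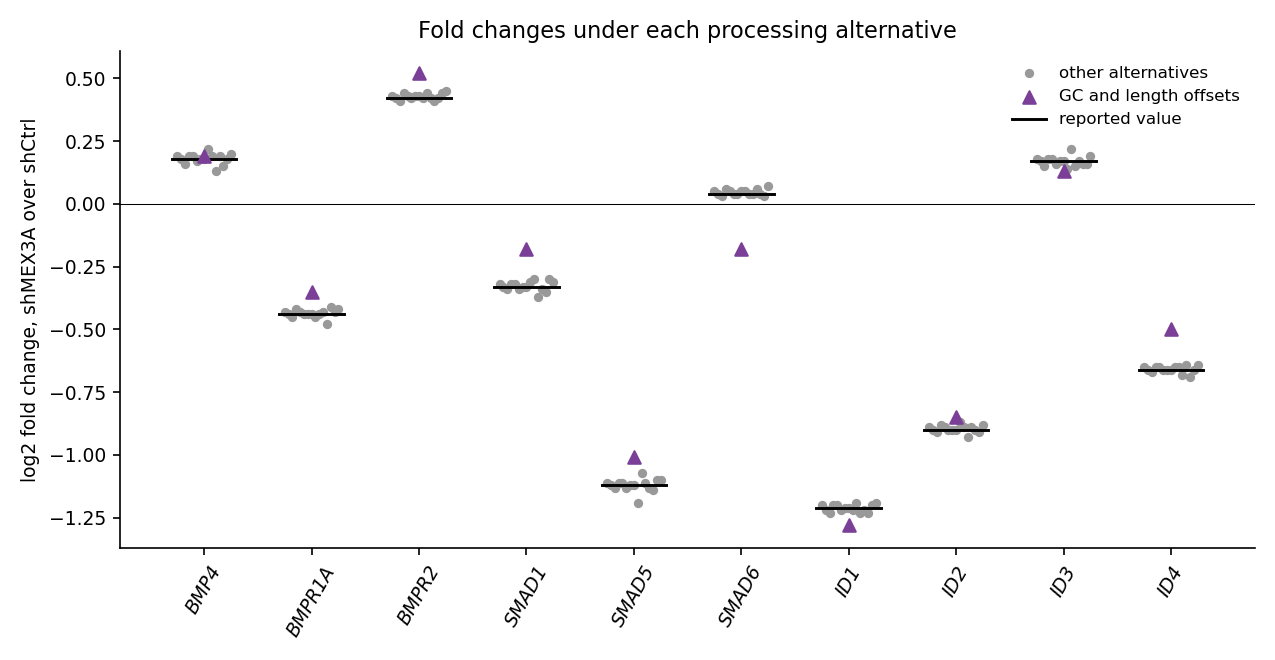
Log2 fold change (shMEX3A over shCtrl) of the 10 genes as reported (black line), under GC and length offsets (triangle) and under the other alternatives (grey points). SMAD6 alone changes sign, from 0.04 to -0.18 under the offsets, and SMAD1 moves from -0.33 to -0.18.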

How the data were processed

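The deposited values are whole-number read counts by gene for 6 libraries, made by the authors with no normalization. The submitters' processing notes name GRCh38 and the tools HTSeq 2.0.4, STAR, fastp 0.20.0 and edgeR 4.0.16, without an annotation release or a strand setting. Here the test was run with edgeR 4.0.16 under R 4.3.3: filterByExpr, TMM scaling, a robust quasi-likelihood fit with 4 residual degrees of freedom and a common biological coefficient of variation of 3.41%, and Benjamini-Hochberg adjustment over 15679 genes at 0.05. Standard errors come from the F statistic, and ± values are SD over 3 libraries. Within an arm no 2 libraries agreed within sampling noise (chi-square per degree of freedom 2.69 to 6.15). Separate cultures are not stated in the labels, so the p-values reflect only the spread among these libraries, possibly technical. Gene models came from GENCODE 29 and promoters from RefSeq. The 10 genes, the pathway lists and the markers were chosen with earlier results of these data known. Besides the 10 genes and MEX3A, the text names the 2 called genes with the smallest p in each direction of each list and the 3 genes nearest to ID1. Other list and marker genes were named after their values were seen. The clear cell marker list is not reported in full here. The alternatives were DESeq2 size factors, upper-quartile factors, 2 other filters, DESeq2 1.42.0, limma 3.58.1 voom, leaving out mitochondrially encoded genes, the replicate block, and dropping each library in turn. GC and length offsets (splines with 5 degrees of freedom, on 14480 genes) were added once the data had been seen. The scripts were tested on simulated data in which far fewer genes changed than were called here.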

Additional observations from a re-analysis of the deposited data

How the results depend on the processing

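Over 14 alternatives set at the outset and 2 added once the data had been seen, the count of genes called ran from 10114 to 11228, and between 10411 and 10811 with 1 library left out. The counts of called genes in the 7 pathway lists, both directions together, stayed within 1.5-fold. By direction, BMP targets called lower went to 3 in place of 6 (DESeq2, without shMEX3A replicate 2, without shCtrl replicate 2). They went to 4 with limma voom and with at least 1 CPM in 3 libraries. Single genes moved the ligands (BMP2), SMADs (SMAD4) and E proteins (BHLHE40) between 1 and 2 called higher. With GC and length offsets, receptors called higher went from 5 to 7 and secreted modulators called higher from 4 to 3. Under the same offsets the inhibitors went from 6 higher and 3 lower to 8 higher and 2 lower. Among the 10 genes, BMP4 lost its call without shMEX3A replicate 3 (0.13, adjusted p = 0.0850), and its log2 fold change ran from 0.13 to 0.22 with 1 library left out. SMAD6 turned to -0.18 (adjusted p = 1.26e-05) with GC and length offsets, and BMP1 to -0.01. The other 8 of the 10 genes kept direction and call under all 16 alternatives. Of the 54 tested list genes, 7 lost a call in at least 1 alternative: HEY1 in 11, BMP2 in 8, GATA3 in 6, ATOH8 in 3, and BMP1, CTDSP1 and TOB1 in 1 each. TOB1 was also called higher under the offsets (0.12). Same-numbered libraries of the arms did not pair: their deviations correlated at -0.0274, 0.0681 and -0.0729. With the replicate block 10751 genes were called, and of the 10 genes and the list genes BMP2 (adjusted p = 0.0550) and HEY1 (0.0549) lost their calls. Genes under about 1 CPM, such as BMP2, BMP6 and NOG, rest on few reads per library.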
